A study of Mus musculus with 12 samples.

Results

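Cytosolic RNA sensing and the interferon response were followed through 9 genes in mouse blastocysts and embryonic stem (ES) cells with and without Dis3l, whose product is an RNA-degrading subunit of the exosome in the cytoplasm. The genes were listed by symbol, with earlier results of these data known. They were the sensors Ddx58 and Ifih1, the adaptor Mavs, the transcription factors Irf3, Irf7 and Stat2, and the interferon-stimulated genes Ifit1, Oas1a and Isg15. All 9 were found in both tables, out of 45801 genes listed in either. The labels give 4 groups of 3 samples: Dis3L KO blastocysts, Dis3L WT blastocysts, Dis3L KO ES cells and Dis3L WT ES cells. Per the labels' protocols, each blastocyst library came from 1 embryo of a superovulated female, by transposase tagmentation of cDNA. The ES cell libraries were stranded and came from RNA depleted of ribosomal RNA, from lines derived and grown on inactivated fibroblast feeders in serum with LIF. The labels name no strain, type of mutant allele or number of lines, so p-values measure the spread between the samples used in each comparison.

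DDX58, also called RIG-I, and IFIH1, also called MDA5, are helicases that bind double-stranded or unprocessed RNA in the cytosol. Both act through MAVS on mitochondria, which leads kinases such as TBK1 to activate IRF3 and IRF7 and so to switch on type I interferon genes. Secreted interferon then acts through its receptor and through a complex that holds STAT2 and IRF9 on the interferon-stimulated response element (ISRE), a promoter motif of genes such as Ifit1, Oas1a and Isg15. Pluripotent cells are known for making and answering interferon weakly. The exosome, fed by the SKI complex, degrades cytoplasmic RNA from the 3′ end, and the comparison asks whether its loss could raise self RNA that these sensors read.

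The promoters are shown for the 3 interferon-stimulated genes because Ifit1 and Oas1a, both with the motif, had their higher ES cell values on opposite sides of the comparison. The motif searched was GAAA, then any 2 bases, then GAAA, on both strands, in the 250 bases before each RefSeq start site (GRCm38.p6). It was found for 4 of the 9 genes, namely Ifit1, Oas1a, Isg15 and Stat2, and in 2.98% of all 32851 promoters of that length. The 120 bases before the start site follow, 5′ to 3′ on the gene's strand, with the motif or overlapping motifs in capitals.
Ifit1, chr19:34640769-34640888, plus strand: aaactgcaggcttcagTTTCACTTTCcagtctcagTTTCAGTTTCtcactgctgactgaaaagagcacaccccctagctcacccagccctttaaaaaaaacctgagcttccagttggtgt
Oas1a, chr5:120907526-120907645, minus strand: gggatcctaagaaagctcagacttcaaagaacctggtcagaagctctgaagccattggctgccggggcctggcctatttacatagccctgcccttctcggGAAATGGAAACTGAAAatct
Isg15, chr4:156200819-156200938, minus strand: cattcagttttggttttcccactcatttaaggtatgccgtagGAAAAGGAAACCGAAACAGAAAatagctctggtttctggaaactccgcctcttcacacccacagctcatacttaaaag
The first motif began 104 bases before the start site in Ifit1, 20 in Oas1a and 78 in Isg15. In Stat2 it began 222 bases before it. A match of these letters describes the window and does not show that a factor binds there. Of the 35 interferon-stimulated genes of a wider list that have a RefSeq promoter here, 17 held the motif.

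The tables hold 1 result per gene and material and no value per sample. Each read adds a fixed amount to a gene's mean, an amount that depends on its library, so the whole reads behind each mean could be solved. The blastocyst means resolved into 6 count columns and the ES cell means into 4, although the labels list 6 samples for each material. Columns that are high when the deposited fold change is positive form the positive side, and the others the negative side. The number 4 was set for the search in ES cells, and on it the ES cell p-values rest on 2 columns per side. No source used here states which genotype is the numerator, so neither side is named as knockout or wild type. Dis3l itself (chromosome 9, 64306756 to 64341288, GRCm38) had 26, 8 and 0 reads on the positive against 10, 4 and 8 on the negative side in blastocysts. In ES cells it had 14 and 8 against 39 and 39, and in the authors' deposited table its adjusted p-value was 0.445. Reads over the recovered genes, which are part of each library, ranged from 128714 to 296923 per blastocyst column (10997 genes) and from 631863 to 1036406 per ES cell column (12137 genes). The labelled materials carried their markers: all 7 pluripotency markers had reads in both tables. Of 7 trophectoderm markers, 7 had reads in blastocysts and 5 were listed in ES cells. Of 6 primitive endoderm markers, 6 had reads in blastocysts and 3 were listed in ES cells, as were 2 of 7 immune cell markers. The deposited fold changes of the pluripotency markers were negative for 5 of 7 in blastocysts and 7 of 7 in ES cells, with 0 called; 48.3% and nearly 50.0% of all tested genes were positive. In blastocysts 3 of 7 pluripotency markers (all negative), 3 of 7 trophectoderm markers and 1 of 6 primitive endoderm markers had an unadjusted p-value under 0.05.

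None of the 9 genes was called at an adjusted p-value under 0.05 (DESeq2's Wald test in the authors' deposited tables) in either material. In blastocysts 6 of the 9 were tested, 0 were called, and 0 had an unadjusted p-value under 0.05, against 0.0986% and 6.21% of the 15209 tested genes. In ES cells 6 were tested, 0 were called, and 2, Ifit1 and Oas1a, had an unadjusted p-value under 0.05, against 0.261% and 5.62% of the 10739 tested genes. The median log2 fold change of the genes with a value was 0.14 in blastocysts (6 genes) and 0.06 in ES cells (9 genes), against −0.04 and −0.00011 over all tested genes. Over the 6 tested genes in ES cells the median was −0.09, of the opposite sign. ES cell fold changes are shrunken towards 0, so sizes are not comparable between the tables.

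**Figure D1:**
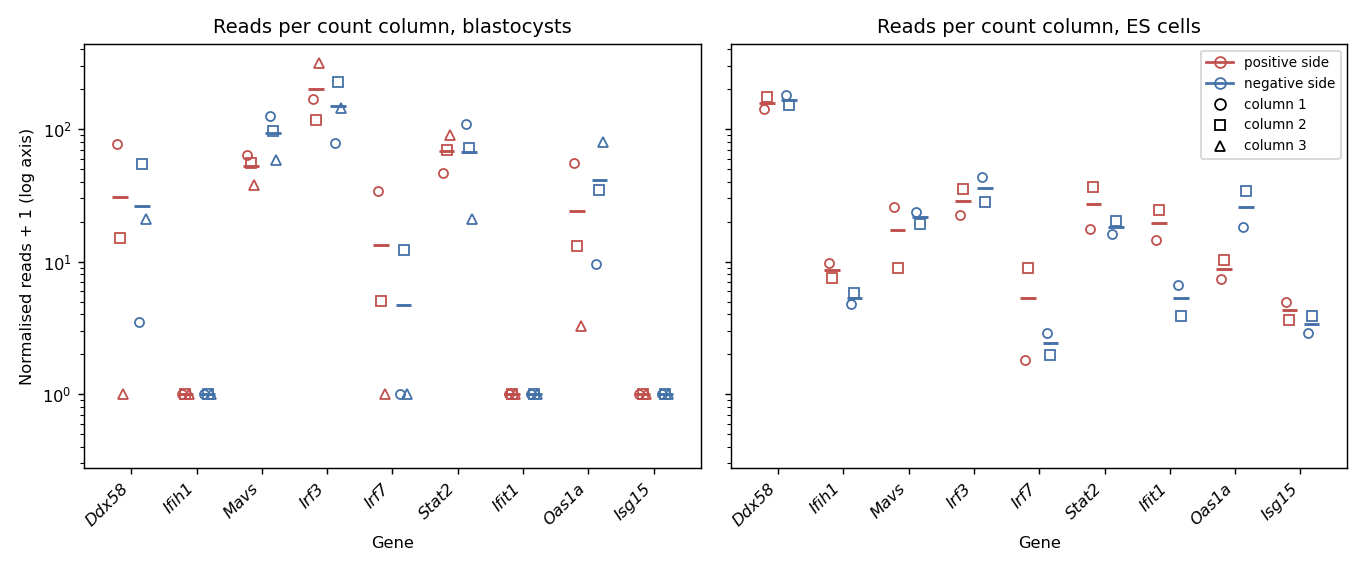
Normalised reads plus 1 (log axis) of each gene in each count column of blastocysts (left, 3 columns per side) and ES cells (right, 2 per side), with bars at the side means. Ifih1, Ifit1 and Isg15 lie at 0 reads in all 6 blastocyst columns, and the sides are apart in ES cells for Ifih1, Ifit1 and Oas1a.

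The sensor Ddx58 (chromosome 4, 40203773 to 40239828) was the most abundant of the 9 genes per transcript length in ES cells and varied widely among blastocysts. Its blastocyst reads were 106, 14 and 0 on the positive against 4, 48 and 14 on the negative side. The high columns were 1 on each side, 1 column held no reads, and the sides overlapped. The authors' deposited table gives a log2 fold change of 0.25 (standard error 1.48, adjusted p-value 0.997). Without positive-side column 1 the log2 ratio of the reads was −1.84, and without negative-side column 2 it was 1.41.

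In ES cells Ddx58 had 177 and 132 reads on the positive against 189 and 156 on the negative side. After normalisation these were 141 and 174 against 180 and 151, so the columns lay close together and the sides overlapped. On the log2 scale the fold change in the authors' deposited table was −0.06 (standard error 0.26). With the shrinkage approximately undone, its 95% interval ran from −0.70 to 0.55.

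The sensor Ifih1 (chromosome 2, 62595798 to 62646255) had 0 reads in each of the 6 blastocyst columns. Blastocyst reads come mostly in pairs (96.3% of the non-zero counts are even), so 0 reads over all columns was taken to allow up to 6, a mean of at most 1.44 normalised counts. In ES cells it had 11 and 5 reads on the positive against 4 and 5 on the negative side. The normalised values, 8.78 and 6.58 against 3.80 and 4.83, did not overlap, but they rest on 25 reads in all. In the authors' deposited table the log2 fold change was 0.19 (standard error 0.28), and that table gives Ifih1 no adjusted p-value. With the shrinkage undone the 95% interval ran from −1.56 to 3.22.

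The adaptor Mavs (chromosome 2, 131234063 to 131248025) had the lowest p-value of the 9 genes in blastocysts. Its reads were 88, 54 and 32 on the positive against 202, 86 and 40 on the negative side. Normalised, the sides had 51.4 ± 13.5 (SD, n = 3) and 92.8 ± 33.8 (SD, n = 3), and negative-side column 3 (57.5) lay below positive-side column 1 (62.8). Its log2 fold change in the authors' deposited table was −0.85 (standard error 0.66, adjusted p-value 0.811). In ES cells the reads were 31 and 6 against 24 and 19, and the highest and the lowest column were both on the positive side. The ES cell log2 fold change in the authors' deposited table was −0.13 with a standard error of 0.33.

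Irf3 (chromosome 7, 44997648 to 45002848), the constitutive transcription factor of the pathway, was the most abundant of the 9 genes per transcript length in blastocysts. Its blastocyst reads were 234, 115 and 274 on the positive against 126, 203 and 100 on the negative side. Normalised values were 199 ± 102 (SD, n = 3) and 149 ± 74.4 (SD, n = 3), and the sides overlapped. The authors' deposited table gives a log2 fold change of 0.42 (standard error 0.56, adjusted p-value 0.923).

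In ES cells Irf3 had 27 and 26 reads on the positive against 45 and 28 on the negative side. Normalised, positive-side column 2 (34.2) lay between the negative-side columns (42.8 and 27.1). On the log2 scale the fold change in the authors' deposited table was −0.19 (standard error 0.33).

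Irf7 (chromosome 7, 141262706 to 141266481), which interferon itself induces and which amplifies the response, was low in both materials. In blastocysts its reads were 46, 4 and 0 on the positive against 0, 10 and 0 on the negative side. Columns with 0 reads stood on both sides, and positive-side column 1 held 46 of the 60 reads. In the authors' deposited table the log2 fold change was 1.74 (standard error 2.52), and without that column the log2 ratio of the reads was −0.87. In ES cells the reads were 1 and 6 against 2 and 1, a total of 10, and the authors' deposited table gives no adjusted p-value.

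Stat2 (chromosome 10, 128270576 to 128292849 in the blastocyst table), the factor that carries the signal from the interferon receptor to the ISRE, showed the smallest blastocyst fold change of the 6 genes with one. Its reads were 64, 68 and 78 on the positive against 174, 64 and 14 on the negative side. The negative side held both the highest and the lowest column. Its log2 fold change in the authors' deposited table was 0.02 (standard error 0.77), a 95% interval from −1.48 to 1.52. In ES cells Stat2 had 21 and 27 reads against 16 and 20, and the normalised sides overlapped. The authors' deposited table gives a log2 fold change of 0.27 (standard error 0.33).

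The interferon-stimulated gene Ifit1 (chromosome 19, 34640871 to 34650009), whose product binds RNA that lacks a host-type cap, was seen in ES cells and not in blastocysts. All 6 blastocyst columns held 0 reads, with the same limit as for Ifih1. In ES cells the reads were 17 and 18 on the positive against 6 and 3 on the negative side. After normalisation these were 13.6 and 23.7 against 5.70 and 2.90, so both positive-side columns lay above both negative-side columns. On the log2 scale the fold change in the authors' deposited table was 0.65 (standard error 0.31, unadjusted p-value 0.0368, adjusted p-value 0.826). The log2 ratio of the reads was 2.12, and 1.66 to 2.68 when each column was left out in turn.

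Oas1a (chromosome 5, 120896256 to 120907521), a synthetase that double-stranded RNA activates to make the short oligoadenylates that switch on RNase L, had its higher ES cell values on the negative side. Its reads were 8 and 7 on the positive against 18 and 34 on the negative side. Normalised, these were 6.39 and 9.22 against 17.1 and 32.9, with no overlap. In the authors' deposited table the log2 fold change was −0.67 (standard error 0.33, unadjusted p-value 0.0406, adjusted p-value 0.853). The log2 ratio of the reads was −1.68, and −2.07 to −1.13 when each column was left out in turn.

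In blastocysts Oas1a had 76, 12 and 2 reads on the positive against 14, 30 and 55 on the negative side. The normalised values ranged 34.6-fold, from 2.29 to 79.1, and the sides overlapped. Its log2 fold change in the authors' deposited table was −0.80 (standard error 1.22, adjusted p-value 0.942). Without negative-side column 3 the log2 ratio was 0.12, and without positive-side column 1 it was −2.48. Oas1a belongs to a family of near-identical neighbouring genes, so its reads could have been split among copies and its values are uncertain in both materials.

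Isg15 (chromosome 4, 156199424 to 156200818), a ubiquitin-like protein that is conjugated to other proteins in the interferon response, had 0 reads in all 6 blastocyst columns. In ES cells it had 5 and 2 reads on the positive against 2 and 3 on the negative side. These 12 reads do not separate the sides. The authors' deposited table gives a log2 fold change of 0.06 (standard error 0.22), and with the shrinkage undone the 95% interval ran from −2.92 to 3.88.

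**Figure D2:**
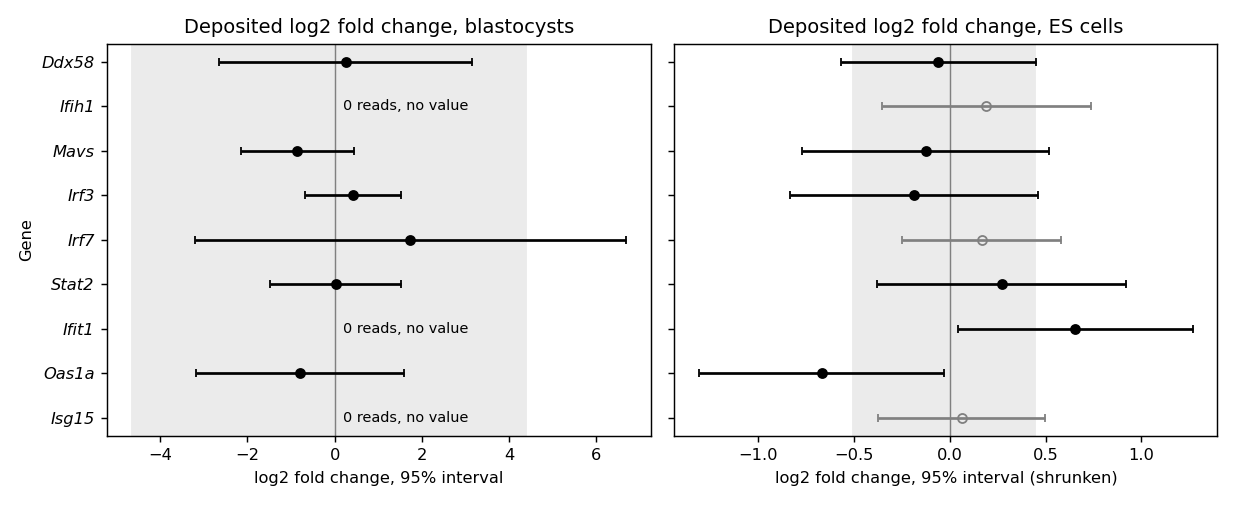
Deposited log2 fold changes of the 9 genes with 95% intervals in blastocysts (left) and ES cells (right, shrunken), over a grey band from the 5th to the 95th percentile of tested genes. Open grey points have no adjusted p-value, and 2 intervals lie off 0, those of Ifit1 and Oas1a in ES cells.

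Levels were ordered by the mean of normalised counts per kilobase of the longest GENCODE M21 transcript. In blastocysts the order was Irf3 (85.8), Mavs (23.6), Oas1a (16.8), Stat2 (15.3), Ddx58 (7.14) and Irf7 (2.47), with Ifih1, Ifit1 and Isg15 at 0. Each neighbouring pair with reads overlapped over the columns, from Irf3 (38.4 to 154) and Mavs (up to 40.9) downwards. Irf3 lay at the 82.7th percentile of protein-coding genes with reads and Irf7 at the 20.7th. In ES cells the order per kilobase was Ddx58 (41.7), Irf3 (15.5), Oas1a (8.70), Mavs (6.04), Stat2 (4.94), Ifit1 (4.32), Isg15 (3.78), Ifih1 (1.10) and Irf7 (0.893). Ddx58 (36.5 to 46.4) lay apart from Irf3 (10.6 to 21.1), and Isg15 (2.52 to 5.28) from Ifih1 (0.695 to 1.61). The other neighbours overlapped. Ddx58 was thus first in ES cells but lower in the order in blastocysts, but library types and normalisation differ between the tables, and this difference was not tested. In these bulk samples fewer cells that express a gene and less RNA per cell cannot be told apart.

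The sides did not overlap for 0 of the 6 genes with blastocyst reads, against 7.97% of the 8853 tested genes with a mean up to 75 (that of Irf3 is higher), 3.51% with the positive and 4.46% with the negative side higher. In ES cells they did not overlap for 3 of 9, Ifih1 and Ifit1 higher on the positive and Oas1a on the negative side, against 40.8% of 9867 tested genes with a mean up to 350, 20% with the positive and 20.8% with the negative side higher. Ifih1, Irf7 and Isg15 are among the 9 but not among the tested genes. The ES cell share is near the background, since 2 columns per side often separate. Fibroblast markers were uneven across the ES cell columns. The summed normalised reads of 8 of the 9 markers were 261 and 233 on the positive against 271 and 1575 on the negative side, and none of the 9 was at 0. Thy1 was lowest in negative-side column 2, with 38 and 19 reads against 30 and 15. Col3a1 alone had 895 reads in negative-side column 2 and 56 in each other column. Oas1a was also highest in negative-side column 2, and Ifit1 was lowest there. Without that column the log2 ratios were −1.13 for Oas1a and 1.71 for Ifit1. Without it, 7 of the 9 genes had sides apart, against a background of 70.4% with 1 column on the negative side. The part of fibroblast RNA in these values was not tested. In blastocysts 6 of the 9 fibroblast markers and 4 of 7 immune cell markers had 0 reads. Of the 2 with recovered reads, Pdgfrb had 210 reads in positive-side column 1, where Ddx58 and Irf7 were highest, and 0 to 30 in the others, while Thy1 had 26, 0 and 0 against 26, 22 and 0. The summed pluripotency (527, 3 markers) and primitive endoderm markers (393, 3 markers) were also highest in that column. Those sums cover 3 of 7 and 3 of 6 markers, since reads of the others were not recovered. The pluripotency sum was only slightly lower in negative-side column 2. Single markers did not all follow the sums, and Foxa2, of primitive endoderm, had its most reads in positive-side column 3. The part of these cell types in the values was not tested.

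**Figure D3:**
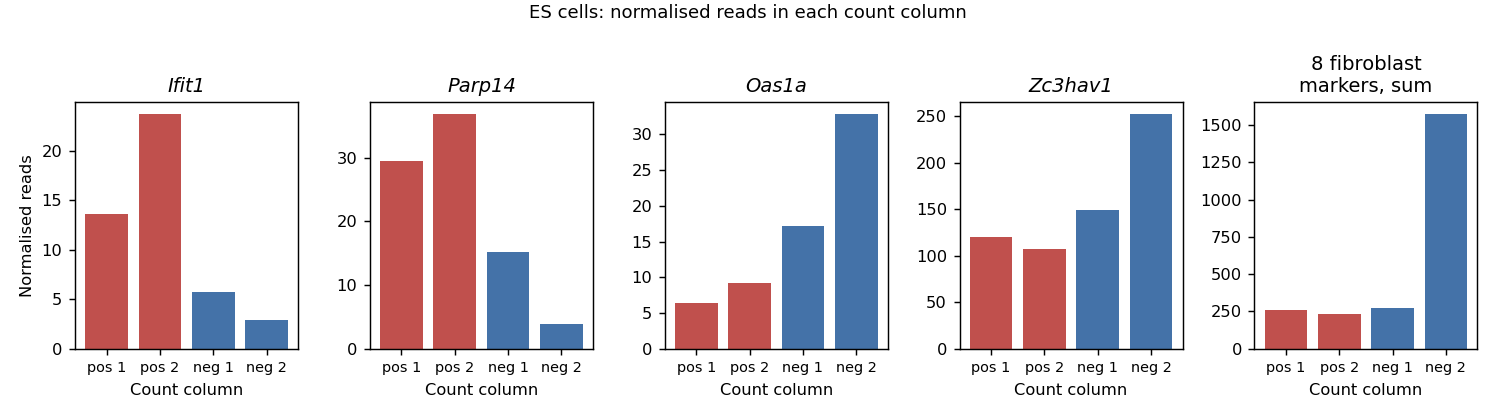
Normalised reads in the 4 ES cell count columns (linear axes from 0) for Ifit1, Parp14, Oas1a and Zc3hav1 and for the sum of 8 fibroblast markers. Ifit1 and Parp14 are higher in both positive-side columns, Oas1a and Zc3hav1 in both negative-side columns, and the fibroblast sum reaches 1575 in negative-side column 2.

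A wider list of 107 genes of the pathway, which includes the 9, placed them among their partners. In blastocysts 40 of the 107 had 0 reads, 62 were tested and 0 were called, and 6 had an unadjusted p-value under 0.05, 4 with a positive and 2 with a negative fold change. The background shares of tested genes were 2.68% positive and 3.53% negative. In ES cells 83 were listed, 57 were tested and 0 were called, and 4 had an unadjusted p-value under 0.05, 2 positive and 2 negative, against 2.21% and 3.42%. Adaptors and kinases had reads for 14 of 15 in blastocysts (8 positive, 6 negative) and were listed for 13 in ES cells (3 positive, 10 negative). Transcription factors had reads for 9 of 10 in blastocysts and were listed for 10 in ES cells, with 5 and 6 positive. The median log2 fold changes of the list were −0.01 in blastocysts (67 genes) and 0.01 in ES cells (83 genes).

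Interferon genes were barely detected. Of 8 interferon genes, 7 had 0 blastocyst reads, while Ifnk, an interferon of keratinocytes, had 7 reads in 1 column. None of the 8 was in the ES cell table, whose lowest listed mean is 2.08. All 6 genes of the interferon receptors and their kinases had reads in both materials. In blastocysts their log2 fold changes in the authors' deposited table ran from 0.0013 to 0.69, and the lowest adjusted p-value was 0.912. In ES cells they ran from −0.24 to 0.12 in the authors' deposited table.

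Interferon-stimulated genes were thinly detected in blastocysts. Of the 45 on the list, 26 had 0 reads, 57.8%, against 39.3% of the 21958 protein-coding genes. In ES cells 34 of the 45 were listed, 75.6%, against 58.7% of the protein-coding genes of the blastocyst table. Their median log2 fold change was −1.72 in blastocysts, with 13 of 19 values negative and 18 tested, and 0.05 in ES cells, with 21 of 34 positive. No member was called in either material. The blastocyst median includes genes with reads on 1 side, whose fitted values are no measure of size. Over the 11 genes with reads on both sides, the median log2 ratio of the reads was −1.21.

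Among these genes Bst2, a membrane protein that tethers budding virus, had the lowest blastocyst p-value of the list. Its reads were 20, 14 and 0 on the positive against 142, 90 and 24 on the negative side, and the sides did not overlap. On the log2 scale the fold change in the authors' deposited table was −2.95 (standard error 1.07, unadjusted p-value 0.00577, adjusted p-value 0.490). Leaving out each column in turn gave log2 ratios from −3.39 to −2.38. In ES cells Bst2 had 21 and 34 reads against 31 and 44, with a log2 fold change of −0.14 and an adjusted p-value that rounds to 1.00 in the authors' deposited table.

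The kinase Tbk1, which phosphorylates IRF3, had 286, 188 and 254 blastocyst reads on the positive against 180, 116 and 60 on the negative side. All 3 positive-side columns were higher after normalisation. In the authors' deposited table the log2 fold change was 1.06 (standard error 0.46, adjusted p-value 0.688). In ES cells Tbk1 had 155 and 82 reads against 117 and 147, and the sides overlapped.

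The other blastocyst genes with an unadjusted p-value under 0.05 had no reads on 1 side and few on the other. The interferon-induced transcription factor Irf1 had 24, 0 and 16 reads on the positive side, Oas1c, a close relative of Oas1a, had 0, 18 and 14, and the membrane protein Ifitm1 had 40, 6 and 0. The mean of the side with reads was set against a floor of 6 reads in each column of the empty side. It was 1.86 times that floor for Irf1, 1.80 times for Oas1c and 1.82 times for Ifitm1. The ADP-ribosyltransferase family member Parp9 had 0, 8 and 24 reads on the negative side, a mean 2.52 times the floor. These ratios leave out the spread among the columns with reads, so they are no lower bounds. Without the highest column the ratios were 1.35, 1.26, 0.480 and 0.777. For Ifitm1 and Parp9 the mean of the remaining columns thus lay below the floor. In ES cells all 4 were listed, and the lowest unadjusted p-value among them was 0.127 in the authors' deposited table.

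In ES cells the ADP-ribosyltransferase Parp14 had 37 and 28 reads on the positive against 16 and 4 on the negative side. Its log2 fold change in the authors' deposited table was 0.77 (standard error 0.33, unadjusted p-value 0.0200, adjusted p-value 0.673). Its log2 ratio of reads ranged from 1.13 to 3.10 when each column was left out, the lowest without negative-side column 2. In blastocysts Parp14 had 12, 32 and 0 reads against 2, 2 and 8, and the sides overlapped.

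Zc3hav1, also called ZAP, binds CpG-rich RNA and brings RNA decay enzymes to it. In ES cells it had 151 and 81 reads on the positive against 157 and 261 on the negative side, which was higher after normalisation. The fold change in the authors' deposited table was −0.64 on the log2 scale (standard error 0.27, unadjusted p-value 0.0203, adjusted p-value 0.673). Without negative-side column 2, the column with the high fibroblast sum, the log2 ratio moved from −0.82 to −0.39. In blastocysts the reads were 248, 118 and 156 against 106, 78 and 62, and the log2 fold change in the authors' deposited table was 0.98 (standard error 0.52, adjusted p-value 0.811).

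The Ifit and Oas families, chosen for mention after seeing the values, had the following ES cell reads. Besides Ifit1, its relatives Ifit2 (12 and 3 reads against 3 and 2) and Ifit3 (7 and 9 against 2 and 0) were higher in both positive-side columns after normalisation, as were 20% of the tested ES cell genes. Over the list, the positive side was higher throughout for 8 and the negative side for 5 of 34 interferon-stimulated genes, and for 14 and 16 of 82 pathway genes. Neither Ifit2 nor Ifit3 has an adjusted p-value, so both fall outside the tested genes. Ifit3b was not listed, and Ifit2 and Ifit3 had 0 blastocyst reads. Besides Oas1a, the listed relatives Oas1c, Oas1g, Oas2 and Oasl2 had between 12 and 26 reads each, and their sides overlapped.

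**Figure D4:**
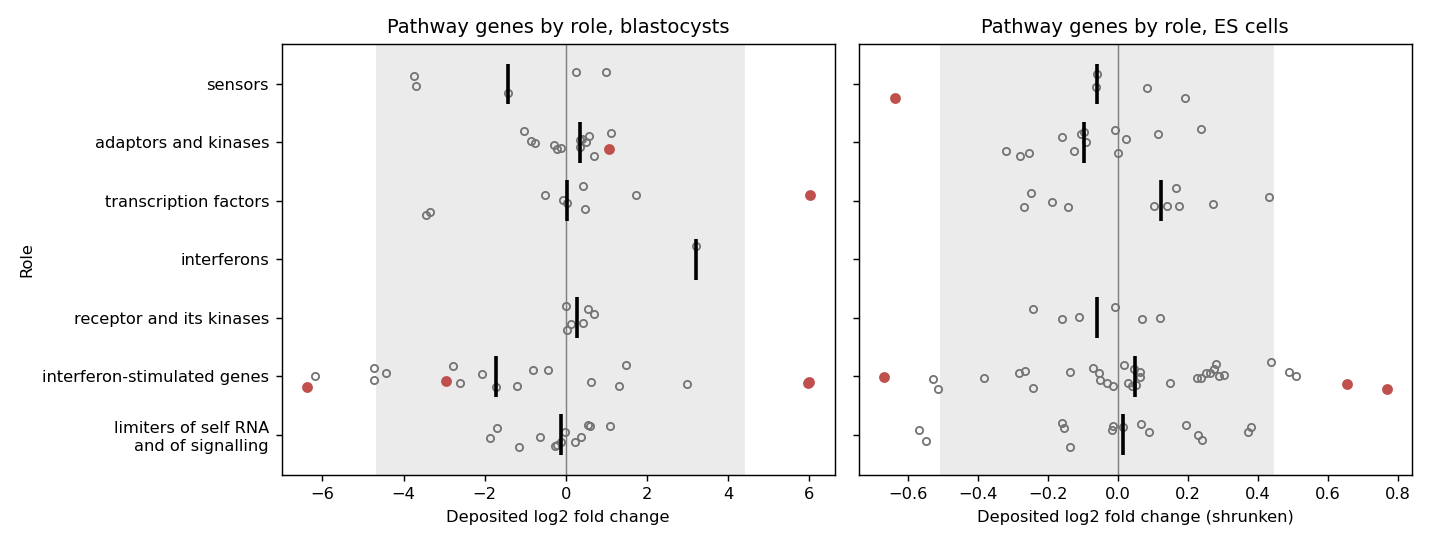
Deposited log2 fold changes of the pathway genes by role in blastocysts (left) and ES cells (right, shrunken), with black bars at the medians and grey bands from the 5th to the 95th percentile of tested genes. Red points have an unadjusted p-value under 0.05, 6 in blastocysts and 4 in ES cells, and 0 genes pass after adjustment.

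Of 8 sensors on the list, Dhx58, a regulator of the other helicases, and Zbp1 had 8 and 6 blastocyst reads, and Ifih1, Tlr3 and Tlr7 had 0. In ES cells Dhx58, Tlr3 and Tlr7 were not listed. The RNA-activated kinase Eif2ak2 had 14, 10 and 0 reads against 0, 0 and 38 in blastocysts, and 68 and 65 against 54 and 79 in ES cells. The sides overlapped in both. Genes that limit self RNA or signalling were broadly detected, 13 of 15 in blastocysts and 15 of 15 in ES cells. Adar, which edits double-stranded RNA, had 40, 20 and 76 blastocyst reads against 59, 38 and 58, and its log2 fold changes in the authors' deposited tables were −0.26 in blastocysts and 0.09 in ES cells. Among these 15 genes, 0 had an unadjusted p-value under 0.05 in either table.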

How the data were processed

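RNA sequencing of 12 samples was deposited as 1 table of comparisons per material. Per the file headers, each gene has a mean normalised count (a signal: counts divided by size factors), a log2 fold change with its standard error, a Wald statistic (a score) and a p-value with its adjusted value, all computed by the authors. The submitters' processing notes name STAR 2.4.0b, SAMtools, bedtools, featureCounts in Subread 2.0.1, DESeq2 1.34.0 and GRCm38, with no settings. The ES cell fold changes appear shrunken, since their largest standard error is 0.33, against 4.08 in blastocysts. The 95% intervals are the deposited value ± 1.96 standard errors. Where shrinkage is said to be undone, the value and its standard error were first rescaled by assuming a normal prior centred on 0, with an SD of 0.664 taken from the largest standard error.

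Whole reads were solved from the deposited means (Python 3.11.15, numba 0.67.0). In ES cells each of the 12137 genes at a mean of 350 or less gave 1 solution. In blastocysts 10802 of 10997 genes at 75 or less did, and the deposited fold change and standard error settled the other 195. A negative-binomial refit came within 0.01 of the deposited blastocyst fold change for 97.4% of 6904 genes. For 18 listed genes with a mean from 75 to 180, among them Irf3, Tbk1 and Zc3hav1, up to 283 solutions each were settled the same way, so their reads rest on the deposited fit. The sides of the columns and the number of blastocyst columns are inferred from the values. For ES cells 4 columns were set for the search, and the refit was not run. No column was assigned to a sample or genotype. Limits from reads allow for counting error in columns with 0 reads only. The blastocyst floor of 6 reads was chosen after the even counts were seen. The solver was tested on simulated data, but only at lower means than the highest solved here. That test did not cover the choice among several solutions.

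The genes named are the 9, Dis3l, and genes of the 107-gene pathway list with an unadjusted p-value under 0.05 in either table; others were chosen after their values were seen. The pathway list has 7 roles, and marker lists cover fibroblasts, pluripotent cells, trophectoderm, primitive endoderm and immune cells. The genes and lists were chosen with earlier results of these data known. Promoters are from RefSeq (GRCm38.p6).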

Additional observations from a re-analysis of the deposited data

Results flagged for a closer look

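Zc3hav1, the CpG-rich RNA binding protein, had deposited log2 fold changes of opposite sign in the 2 materials, 0.98 in blastocysts and −0.64 in ES cells. In blastocysts all 3 positive-side columns lay above the negative side, and in ES cells both negative-side columns lay above the positive side. The difference between the materials was not tested. The direction of each table is not stated, so opposite signs are not shown to be opposite differences between the genotypes. Neither value passed after adjustment in the authors' deposited tables.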

How the results depend on the processing

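Under each alternative tried (an adjusted p-value threshold of 0.01, adjustment over all genes with a p-value, minimum means of 10 and 50, rescaled statistics, autosomes only), 0 of the 9 genes and 0 of the pathway list were called in either material. The lowest adjusted p-value of the 9 genes ranged from 0.809 to 0.926 in blastocysts and from 0.469 to 1.00 in ES cells. The median of the 9 genes in ES cells moved from 0.06 to 0.46 with the log2 ratios of the reads, which are not shrunken, and to −0.09 over genes with a mean of at least 10. Without negative-side count column 2, the ES cell genes with sides apart went from 3 to 7 of the 9 genes. This step was chosen after seeing the data. Under the same step the share over 9867 tested genes rose from 40.8% to 70.4%. The rise is thus not particular to the 9 genes. Of 110 comparisons of single fold changes with an alternative, 13 changed sign and 38 moved by a standard error or more. No sign change was seen for 5 of 15 values, those of Mavs in blastocysts and of Ifih1, Ifit1, Oas1a and Isg15 in ES cells. The ES cell values among them moved by that much in 6, 6, 6 and 4 of 7 alternatives, in that order. In blastocysts, leaving out each column gave −1.10 to −0.58 for Mavs, −0.07 to 0.84 for Irf3 and −0.40 to 0.57 for Stat2. In ES cells it gave −1.38 to 0.27 for Mavs, −0.70 to 0.04 for Irf3, −0.04 to 1.04 for Stat2, −0.84 to 2.46 for Irf7 and −0.23 to 0.07 for Ddx58, and the sign turned without positive-side column 2 for Mavs, Stat2 and Irf7, negative-side column 1 for Irf3, and positive-side or negative-side column 1 for Ddx58. In blastocysts it turned without positive-side column 3 for Irf3, and positive-side or negative-side column 3 for Stat2. No paired analysis was possible because the replicate numbers of the labels stand on no count column. Low read counts limit Ifih1, Irf7 and Isg15 in ES cells (25, 10 and 12 reads), and Ifih1, Ifit1 and Isg15 in blastocysts (0 reads).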
